A study of Mus musculus with 24 samples.

Results

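The main effect of the PI3K delta inhibitor ACP319 on gene expression was followed by RNA-seq of mononuclear cells from the bone marrow of Shp2 E76K mice. The 6 specimens from mice given ACP319 were set against the 6 from mice not given it, out of 12 specimens in all, with ACP196, a BTK inhibitor, as a covariate. Specimens were chosen by their treatment label alone. The PI3K inhibitor group (specimens 7 to 9) received ACP319, the vehicle group (specimens 1 to 3) received vehicle, the combination group (specimens 10 to 12) received ACP319 and ACP196, and the BTK inhibitor group (specimens 4 to 6) received ACP196. Treatment lasted 3 weeks, and mice of every group carried Shp2 E76K, a constantly active form of the phosphatase encoded by Ptpn11 that models juvenile myelomonocytic leukemia. The labels name no promoter or Cre for the allele, no age and no sex, and leave unstated whether specimen numbers are different mice. The p-values therefore rest on the spread between specimens, which may be partly technical. ACP319 was thus tested in 2 pairs of groups that share no specimen: the PI3K inhibitor against vehicle (without ACP196), and the combination against the BTK inhibitor (with ACP196).

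PI3K delta is a lipid kinase whose catalytic subunit, p110 delta, is encoded by Pik3cd and is made mainly in leukocytes. Its lipid product recruits AKT and also BTK to the membrane, AKT activates mTOR, and AKT keeps the FOXO transcription factors out of the nucleus. Constantly active Shp2 signals through RAS to ERK and through PI3K, and in mouse marrow it expands granulocytes and monocytes.

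Total counts per specimen lay between 8993950 and 22154833, and 12742 of 24421 genes in the table had enough counts to be tested. Levels are given as CPM, counts scaled to the library total, and effects as log2 fold changes with their standard error (SE). BTK inhibitor specimen 5 stood apart, with the fewest counts and 15.4% of them on the ribosomal RNA gene Rn45s, against 0.203% to 0.773% elsewhere. BTK inhibitor specimen 6 carries day 30 in its title and the other 11 carry day 24, and what was done on that day is not stated. Y-linked genes were above 10 CPM in 1 PI3K inhibitor, 2 vehicle, 1 combination and 1 BTK inhibitor specimen. Markers of granulocytes were abundant in every group: summed CPM of 23 mature neutrophil markers ran from 68820 to 140100 in the PI3K inhibitor group, 47760 to 76600 in the vehicle group, 40480 to 50020 in the combination group and 54090 to 142500 in the BTK inhibitor group. In bulk samples, more cells of a type and more RNA per cell cannot be told apart.

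Across all 12 specimens no gene passed the test for a main effect of ACP319 (0 higher and 0 lower by edgeR's quasi-likelihood test, smallest Benjamini-Hochberg adjusted p = 0.779). At an unadjusted p below 0.05 there were 639 genes, 5.01% of those tested, with 414 higher (3.25%) and 225 lower (1.77%). DESeq2 called 11 genes higher (0.0869%) and 1 lower (0.0079%). Limma voom with quality weights, which weights specimens by their fit, called 214 higher (1.68%) and 112 lower (0.879%). Its weights ran from 0.107 for BTK inhibitor specimen 5 to 5.85 for PI3K inhibitor specimen 7. What follows therefore describes genes and gene groups by how they stood in each pair of groups, and none of them is a call of the main effect at an adjusted p below 0.05 by edgeR.

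Most genes did not have the same sign of effect with and without BTK inhibition. Fold changes had opposite signs in the pairs of groups for 9251 genes (72.6%), were positive in both for 1803 (14.2%) and negative in both for 1688 (13.2%). Across genes, which are not independent replicates, the log2 fold changes of the pairs were negatively related (Pearson r = -0.572, Spearman rho = -0.594, 12742 genes). Without ACP196, 617 genes were called higher (4.84%) and 742 lower (5.82%) in the PI3K inhibitor group at an adjusted p below 0.05 by edgeR. With ACP196, the combination against the BTK inhibitor gave 0 calls by edgeR, 577 by DESeq2 and 4973 by voom. At an unadjusted p below 0.05 that pair had 2569 genes (20.2%), 798 higher (6.26%) and 1771 lower (13.9%), and without BTK inhibitor specimen 6 edgeR called 3470. An unadjusted p below 0.05 in both pairs with opposite directions was met by 1214 genes (9.53%). The difference between the pairs, the interaction of the inhibitors, was itself called for 3522 genes (27.6%), of which 3492 had opposite signs. The number of calls changed with single specimens. Interaction calls went to 0 without combination specimen 11 or 12 and to 1 without PI3K inhibitor specimen 8 or 9 or vehicle specimen 2. The fold changes themselves moved less: r was -0.504 without combination specimen 11 and -0.494 without specimen 12. Opposite signs were then found for 70.8% and 70.7% of genes. The 1359 calls without ACP196 went to 0 when PI3K inhibitor specimen 8 or 9, any vehicle specimen or any combination specimen was left out. Combination specimens are not in that pair, but its test uses a spread estimated over all groups. The plot of both fold changes per gene shows the few genes that stood away from the trend of opposite signs.

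**Figure D1:**
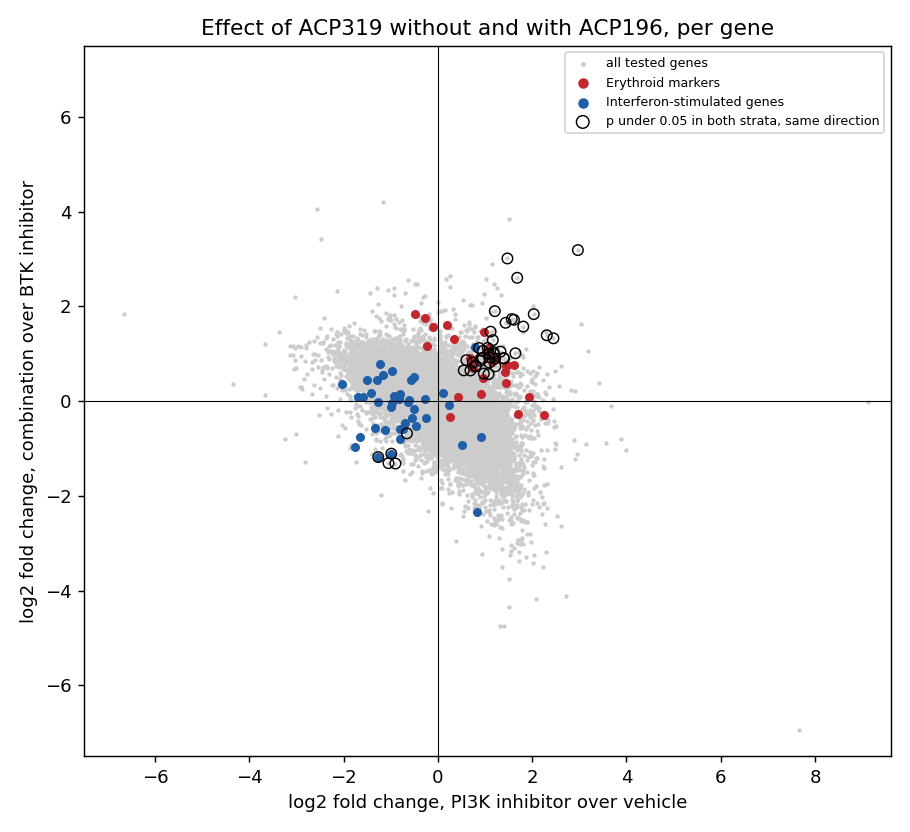
Each grey point is 1 of 12742 tested genes, with its log2 fold change for the PI3K inhibitor over vehicle on the x axis and for the combination over the BTK inhibitor on the y axis, and coloured points are the 26 tested erythroid markers and 40 interferon-stimulated genes. Circles mark the 43 genes with an unadjusted p below 0.05 in both comparisons and the same direction: 38 lie in the upper right quadrant and 5 in the lower left.

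The opposite signs went with gene length. In the shortest decile of genes (56 to 1101 bases) the median log2 fold change was 1.07 without ACP196 and -0.87 with it, and in the longest decile (6260 to 83437 bases) it was -0.92 without ACP196 and 0.51 with it. The slope over genes of relative log2 CPM on log2 length averaged -0.28 ± 0.16 in the PI3K inhibitor group, 0.22 ± 0.16 in the vehicle group, 0.21 ± 0.10 in the combination group and -0.15 ± 0.29 in the BTK inhibitor group (SD, n = 3 each). Over the 6 specimens given ACP319 against the 6 not given it, the slope did not differ beyond its spread (-0.04 ± 0.29 and 0.04 ± 0.29, SD, n = 6 each, exact permutation test within pairs of groups, two-sided p = 0.7, adjusted p = 0.95 over 5 measures). With a gene length offset in the model, 1 gene was called for the interaction in place of 3522, and r became -0.366, and then -0.144 with BTK inhibitor specimen 5 left out as well.

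**Figure D2:**
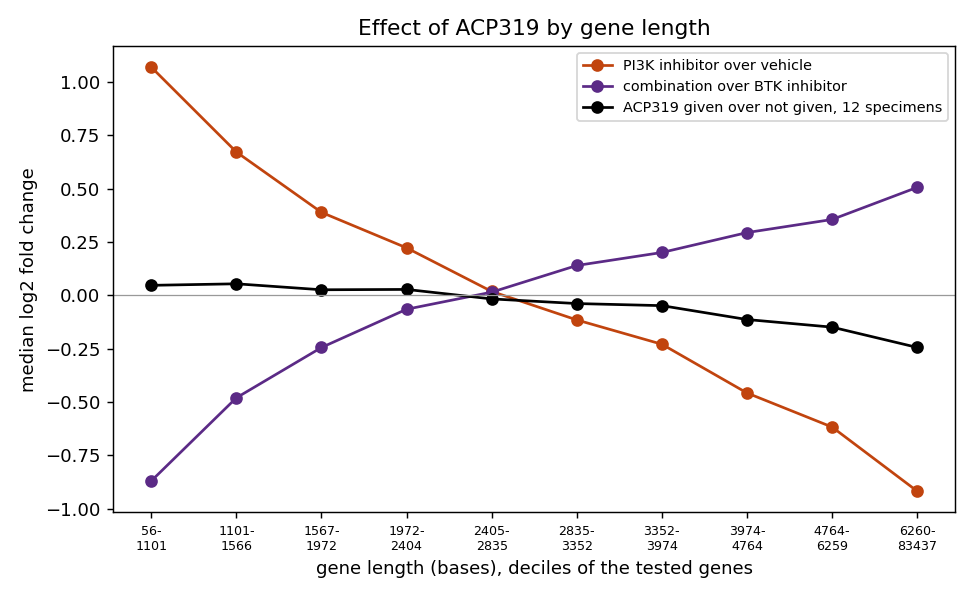
Median log2 fold change (y axis) in deciles of the tested genes by length in bases (x axis), for the PI3K inhibitor over vehicle, the combination over the BTK inhibitor, and ACP319 given over not given across 12 specimens. The first line runs downward and the second upward with length. The third also runs downward but less, from 0.05 in the shortest decile to -0.24 in the longest.

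Genes that met an unadjusted threshold with the same sign in both pairs were few. An unadjusted p below 0.05 in each pair, with the same direction, was met by 38 genes that were higher (0.298%) and 5 that were lower (0.0392%). None of the 43 passed an adjusted test of both pairs jointly (0 by the conjunction test on edgeR p-values, 43 at an unadjusted p below 0.05, or 0.337%, and 0 also with DESeq2 or voom p-values). None was called for the interaction. Their median length was 2798.5 bases for the higher and 2013 bases for the lower genes, against 2835 for all tested genes. Choosing genes by p in each pair largely fixes whether specimens overlap there, so the lack of overlap within either pair for 30 of the 38 and 2 of the 5 (0.95% and 0.204% of all tested genes in those directions) is a description only. All 6 specimens given ACP319 stood above all 6 not given it for 0.667% of all tested genes, and below them for 0.0942%. Of the 12 genes that DESeq2 called, 11 were among the 43, and voom called 39 of the 43. The 43 were chosen by p in these same counts, so this overlap is a description only.

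Sparc, which encodes a collagen-binding matrix protein, had the smallest main effect p (chr11:55394159-55420080, mm10, the gene's extent in the table). It had 7.38, 14.8 and 7.98 CPM in the PI3K inhibitor group, against 2.01, 1.80 and 1.69 CPM in the vehicle group. In the combination group it had 9.12, 21.2 and 8.53 CPM, against 4.41, 6.66 and 4.69 CPM in the BTK inhibitor group. All 6 specimens given ACP319 stood above all 6 not given it, with a main effect of 1.88 ± 0.33 (log2 ± SE, edgeR adjusted p = 0.779, DESeq2 adjusted p = 5.892e-04).

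Dhrs11, a short-chain dehydrogenase gene, had 50.8, 80.8 and 106 CPM in the PI3K inhibitor group against 24.4, 39.5 and 39.8 CPM in the vehicle group. It had 73.8, 85.7 and 54.8 CPM in the combination group against 42.2, 29.7 and 35.6 CPM in the BTK inhibitor group. The groups of 6 did not overlap, and the main effect was 1.09 ± 0.23 (log2 ± SE). Gp9, a subunit of the platelet receptor for von Willebrand factor, had 7.38, 8.08 and 8.42 CPM in the PI3K inhibitor group and 3.98, 3.55 and 3.80 CPM in the vehicle group, and 7.98, 8.45 and 6.54 CPM in the combination group and 4.62, 5.45 and 5.44 CPM in the BTK inhibitor group. Its main effect was 0.82 ± 0.18 on the log2 scale, again without overlap between the groups of 6. The other 19 tested megakaryocyte and platelet markers did not share this: none was counted in both pairs, and the median main effect of the list was -0.18. Acp5, the tartrate-resistant acid phosphatase of osteoclasts and macrophages, had 117, 117 and 124 CPM in the PI3K inhibitor group against 54.3, 57.3 and 70.8 CPM in the vehicle group, and 123, 116 and 78.6 CPM in the combination group against 72.0, 51.5 and 88.8 CPM in the BTK inhibitor group. There 1 combination specimen lay below the highest BTK inhibitor specimen.

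The other higher genes named by the rule had main effects between 0.73 and 2.26 (log2). They were Col1a2, which encodes a chain of type I collagen, March3 and March8, which encode membrane-bound ubiquitin ligases, Nek8, a kinase of the primary cilium, Slc25a21, a mitochondrial oxodicarboxylate carrier, Chac2, which degrades glutathione, Fn3krp, a ketosamine kinase, and Wbscr27. Among the lower genes were Ifit3b, Ifit1 and Ppp1r3d, a subunit that targets a phosphatase to glycogen. Ppp1r3d had a main effect of -0.67 ± 0.21 (log2 ± SE). The other 2 of the 5 lower genes were the predicted gene 4933412O06Rik and Ly6i, a member of the Ly6 surface protein family with a main effect of -1.10, both named here after their values were seen. The plot of CPM by specimen shows 8 of the 43 genes.

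**Figure D3:**
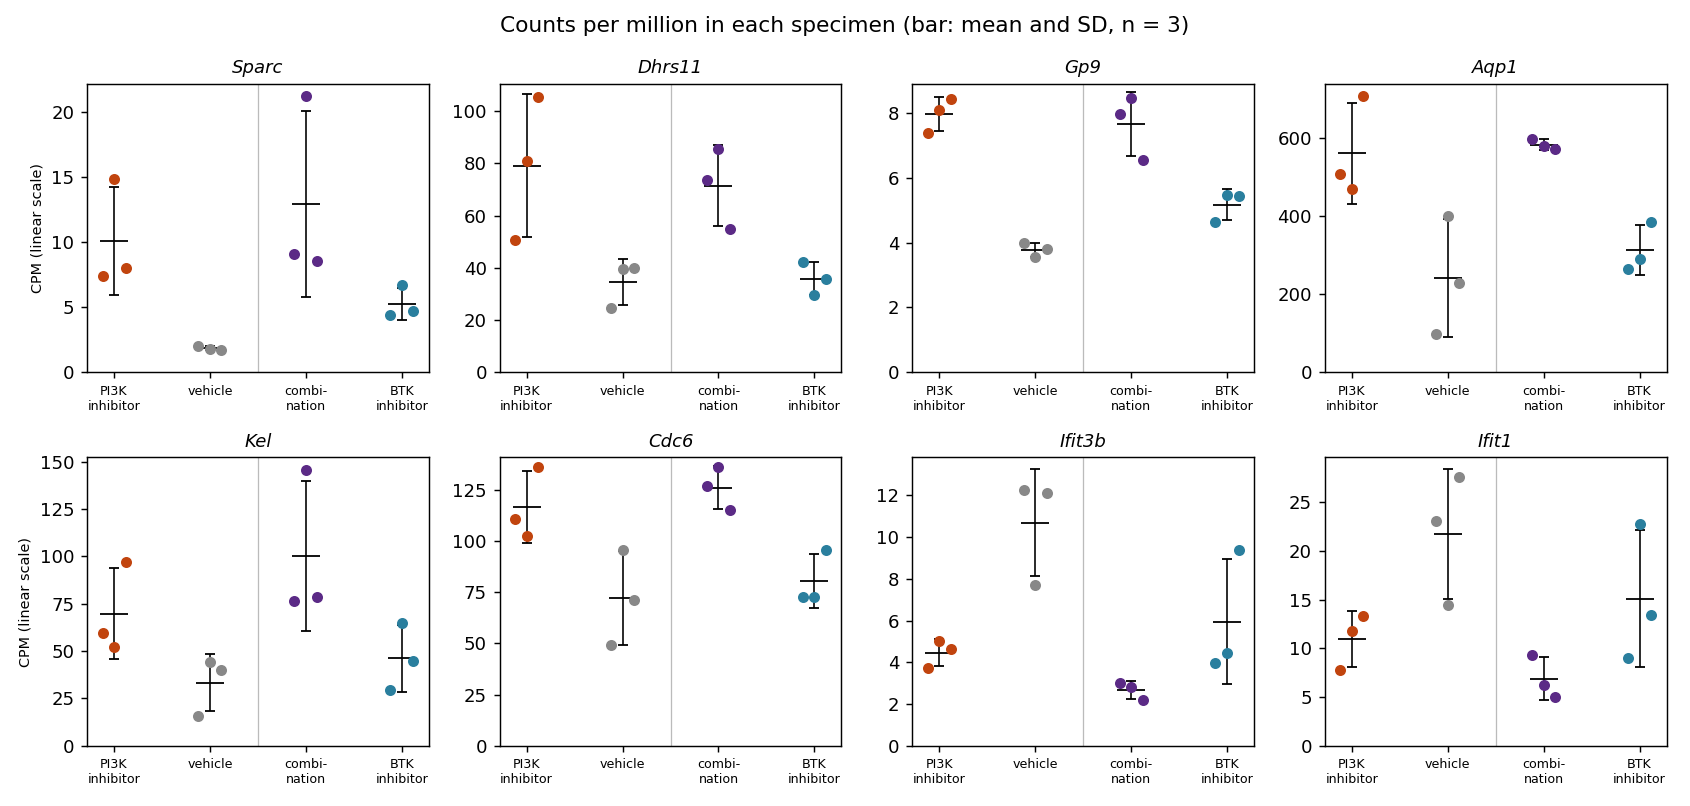
CPM on a linear scale from 0 (y axis) for 8 genes in each of 12 specimens, by group on the x axis, with bars at the mean and SD (n = 3). Sparc, Dhrs11, Gp9, Aqp1, Kel and Cdc6 were higher and Ifit3b and Ifit1 lower in the group given ACP319 of each pair, except that for Ifit1 combination specimen 10 had 9.35 CPM and BTK inhibitor specimen 4 had 9.03 CPM.

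Markers of red cell precursors were higher with ACP319 in both pairs of groups. Of 26 tested erythroid markers, 16 were higher and 0 lower at an unadjusted p below 0.05 for the main effect, against 3.25% and 1.77% of all tested genes, and none passed the adjusted test by edgeR. Signs were positive in both pairs for 19 of 26 and negative in both for 0, against 14.2% and 13.2% of all tested genes. The median log2 fold change of the list was 0.97 without ACP196 and 0.79 with it, against -0.01 and 0.02 for all tested genes. Their median length was 2593 bases. DESeq2 called 0 of the 26 and voom called 10 higher and 0 lower. Of all tested genes, DESeq2 called 0.0869% higher and 0.0079% lower, and voom 1.68% higher and 0.879% lower.

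Aqp1, the water channel of the red cell membrane, and Kel, the Kell blood group antigen, were among the 38 genes counted in both pairs. Aqp1 had 507, 468 and 708 CPM in the PI3K inhibitor group against 96.6, 399 and 227 CPM in the vehicle group, and 598, 580.5 and 571 CPM in the combination group against 265, 289 and 384 CPM in the BTK inhibitor group. Kel had 59.4, 52.4 and 97.0 CPM in the PI3K inhibitor group against 15.96, 43.98 and 40.2 CPM in the vehicle group, and 76.6, 146 and 78.3 CPM in the combination group against 29.6, 64.6 and 44.5 CPM in the BTK inhibitor group. Neither gene overlapped within a pair, and the main effects were 1.06 ± 0.29 for Aqp1 and 1.09 ± 0.31 for Kel (log2 ± SE).

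Klf1, Epor and Car2 also had no overlap in either pair, which 6 of 26 erythroid markers showed in the higher direction against 0.95% of all tested genes. Klf1 is a transcription factor of red cell differentiation, Epor the erythropoietin receptor, and Car2 a carbonic anhydrase of red cells. Car2 had 1054, 1294 and 2139 CPM in the PI3K inhibitor group against 231, 725.6 and 666 CPM in the vehicle group, and 1289, 1192 and 1181 CPM in the combination group against 793, 619 and 751 CPM in the BTK inhibitor group. Main effects were 0.99 ± 0.30 for Klf1, 1.02 ± 0.30 for Epor and 1.11 ± 0.31 for Car2 (log2 ± SE). Vehicle specimen 1 was the lowest of the 12 for Aqp1, Kel, Klf1, Epor and Car2, and without it 12 erythroid markers had an unadjusted p below 0.05, with a median main effect of 0.67 against 0.86 with all specimens. Over all tested genes, 383 of 12929 had such a p in either direction without that specimen, against 639 of 12742 with all specimens.

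Among the 7 markers with opposite signs were long and short genes. Sptb, a spectrin gene of 10394 bases, had a log2 fold change of -0.49 without ACP196 and 1.84 with it, and Ank1, an ankyrin gene of 9018 bases, had -0.26 without ACP196 and 1.76 with it. Gata1, the erythroid GATA factor of 1902 bases, had 1.69 without ACP196 and -0.28 with it, and Icam4, of 907 bases, had 2.26 and -0.28. With the gene length offset, 22 of 26 markers were positive in both pairs, 21 had an unadjusted p below 0.05 for the main effect, all higher, and the medians were 0.95 without ACP196 and 0.80 with it. In that fit 991 of 12742 tested genes had such a p in either direction, against 639 without the offset. Opposite signs were found for 63% of all tested genes, against 72.6% without the offset. The alpha globin genes Hba-a1 and Hba-a2 and the beta globin genes Hbb-bs and Hbb-bt are listed with a count of 0 in every specimen. The 10 hemoglobin genes counted together had 9 to 13 counts in the PI3K inhibitor group, 1 to 4 in the vehicle group, 8 to 9 in the combination group and 4 to 5 in the BTK inhibitor group. Scaled to the total count this was 0.513 ± 0.119 CPM with ACP319 and 0.206 ± 0.139 CPM without (SD, n = 6 each, exact permutation test within pairs, two-sided p = 0.015, adjusted p = 0.075 over 5 measures). These few counts do not measure globin expression. Hbq1b, a theta globin gene outside that set and chosen after its values were seen, had 4.50, 13.9 and 22.9 CPM in the PI3K inhibitor group against 1.12, 4.04 and 3.63 CPM in the vehicle group, and 6.74, 7.22 and 6.69 CPM in the combination group against 5.26, 8.68 and 1.99 CPM in the BTK inhibitor group.

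Promoter sequences were taken from RefSeq on GRCm38.p6 (the build also called mm10), as 250 bases before to 50 after a gene's start, for 9691 of the 12742 tested genes by symbol. The GATA core AGATAA, a form of the motif that erythroid GATA factors bind, was found on either strand in promoters of 7 of 18 matched erythroid markers (38.9%), against 8.07% of all matched genes. Other forms of the motif were not searched. Kel is shown because it met the rule in both pairs and holds the motif. Its promoter lies on the minus strand at chr6:41704276-41704575 and has 1 match to AGATAA, in capitals, 5′ to 3′. The promoters of Aqp1 and of Abcb10, a gene of the heme and iron list counted in both pairs, have none.
Kel: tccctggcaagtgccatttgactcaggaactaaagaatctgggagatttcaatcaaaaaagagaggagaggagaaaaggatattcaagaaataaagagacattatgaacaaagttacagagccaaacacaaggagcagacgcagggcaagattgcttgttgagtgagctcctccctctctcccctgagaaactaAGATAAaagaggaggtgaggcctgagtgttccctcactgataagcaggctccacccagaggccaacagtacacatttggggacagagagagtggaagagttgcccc

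Genes of heme synthesis and iron handling followed the erythroid markers. The 2 genes Slc25a38 and Abcb10 were higher without overlap in either pair, as were 0.95% of all tested genes. Of 26 tested members, 13 were higher and 0 lower at an unadjusted p below 0.05, against 3.25% and 1.77% of all tested genes. Signs were positive in both pairs for 15 and negative in both for 0, against 14.2% and 13.2% of all tested genes. The median log2 fold change was 0.81 without ACP196 and 0.31 with it. Slc25a38, the mitochondrial glycine carrier of heme synthesis, had 71.7, 68.9 and 113 CPM in the PI3K inhibitor group against 28.8, 31.7 and 39.6 CPM in the vehicle group, and 72.1, 71.4 and 62.9 CPM in the combination group against 53.2, 56.1 and 45.3 CPM in the BTK inhibitor group. Abcb10, a mitochondrial transporter of erythroid cells, was counted in both pairs with a main effect of 0.77 ± 0.22 (log2 ± SE). Alas2, the erythroid enzyme of the first step, had a main effect of 1.09 ± 0.48 with overlapping values: 107, 421 and 661 CPM in the PI3K inhibitor group against 55.4, 380.4 and 235 CPM in the vehicle group, and 418, 421 and 346 CPM in the combination group against 210, 180 and 72.3 CPM in the BTK inhibitor group. Alas1, the enzyme of that step in other tissues, had a main effect of -0.04 ± 0.19. Without vehicle specimen 1, 5 members had an unadjusted p below 0.05 in place of 13, with a median of 0.49 in place of 0.65, and without BTK inhibitor specimen 6 there were 8. Over all tested genes, either direction, this p was met by 639 of 12742 with all specimens. It was met by 383 of 12929 without vehicle specimen 1 and 746 of 12950 without BTK inhibitor specimen 6.

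Genes of DNA replication were on the higher side with ACP319. Of 44 tested members, 9 were higher and 0 lower at an unadjusted p below 0.05, against 3.25% and 1.77% of all tested genes. Signs were positive in both pairs for 23 and negative in both for 0, against 14.2% and 13.2% of all tested genes. The median log2 fold change was 0.69 without ACP196 and 0.10 with it, and 0.50 and 0.23 with the length offset. The difference between the pairs was called for 13 of 44, against 27.6% of all tested genes. Orc1, a subunit of the origin recognition complex, and Cdc6, which loads the MCM helicase at origins, were counted in both pairs. Orc1 had 29.4, 23.3 and 45.7 CPM in the PI3K inhibitor group against 13.7, 21.8 and 23.3 CPM in the vehicle group, where the lowest and highest values met, and 41.97, 33.4 and 37.97 CPM in the combination group against 19.8, 18.6 and 25.8 CPM in the BTK inhibitor group. Cdc6 had 111, 103 and 136 CPM in the PI3K inhibitor group against 49.5, 95.7 and 71.3 CPM in the vehicle group, and 127, 136 and 115 CPM in the combination group against 72.6, 72.9 and 95.8 CPM in the BTK inhibitor group. Main effects were 0.78 ± 0.21 for Orc1 and 0.67 ± 0.19 for Cdc6 (log2 ± SE). Rrm2, a ribonucleotide reductase subunit, and Pola2, a subunit of polymerase alpha, joined Cdc6 in showing no overlap in either pair. Over all tested genes 0.95% were higher without overlap. Main effects were 0.65 ± 0.20 for Rrm2 and 0.52 ± 0.19 for Pola2. The helicase subunits Mcm2 to Mcm7 were positive in both pairs, with main effects from 0.27 to 0.41. Mitosis genes had medians of 0.14 without ACP196 and 0.17 with it, with 3 of 37 higher and 0 lower at an unadjusted p below 0.05. Without vehicle specimen 1, 4 replication genes had an unadjusted p below 0.05 in place of 9, and without BTK inhibitor specimen 5 there were 18. The count over all tested genes, either direction, moved too. It was 639 of 12742 with all specimens, 383 of 12929 without vehicle specimen 1 and 1190 of 12948 without BTK inhibitor specimen 5. An E2F core (TTTCCCGC, TTTGGCGC or TTTCGCGC, either strand) was found in promoters of 14 of 36 matched replication genes (38.9%), against 4.11% of all matched genes. The promoter of Cdc6, a member counted in both pairs, lies on the plus strand at chr11:98907901-98908200 and has 1 match, in capitals, 5′ to 3′. RefSeq's start for this window lies downstream of the gene's first base in the count table (98907889), so the window and its match lie within the gene's extent there.
Cdc6: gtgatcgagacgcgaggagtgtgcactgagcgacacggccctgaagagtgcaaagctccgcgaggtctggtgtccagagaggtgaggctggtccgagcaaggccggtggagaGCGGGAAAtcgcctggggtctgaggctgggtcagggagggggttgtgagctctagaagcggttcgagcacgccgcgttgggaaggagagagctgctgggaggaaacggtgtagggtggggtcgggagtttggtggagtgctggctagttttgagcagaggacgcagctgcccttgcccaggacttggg

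Sparc and the type I collagen genes, which are matrix genes of marrow stroma, were higher with ACP319 in both pairs. Col1a2 had 6.36, 12.6 and 6.65 CPM in the PI3K inhibitor group against 1.88, 5.47 and 1.81 CPM in the vehicle group, and 18.7, 65.8 and 24.2 CPM in the combination group against 3.82, 1.01 and 7.75 CPM in the BTK inhibitor group. Col1a1, the other chain of type I collagen, had 8.83, 17.8 and 5.57 CPM in the PI3K inhibitor group against 2.46, 8.66 and 3.33 CPM in the vehicle group, which overlapped, and 23.4, 91.1 and 26.4 CPM in the combination group against 5.31, 3.23 and 9.66 CPM in the BTK inhibitor group. Combination specimen 11 was the highest of the 12 for Sparc, Col1a1 and Col1a2, and the difference between the pairs was not called (edgeR adjusted p = 0.139 for Sparc, 0.1471 for Col1a1 and 0.2027 for Col1a2). Adipoq, the adipocyte hormone adiponectin, was counted in both pairs at low levels: 0.721, 1.14 and 1.14 CPM in the PI3K inhibitor group against 0.403, 0.286 and 0.302 CPM in the vehicle group, and 0.712, 0.512 and 0.739 CPM in the combination group against 0.212, 0 and 0.238 CPM in the BTK inhibitor group. The 3 matrix genes Col2a1, Col8a1 and Tnc, which were not on the list of stromal markers, also met the rule in both pairs, with main effects of 3.09 ± 0.76, 2.06 ± 0.54 and 1.55 ± 0.39 (log2 ± SE), and Col2a1 stayed below 1 CPM in every specimen.

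Of the whole list of 17 tested stromal and endothelial markers, 4 were higher and 0 lower at an unadjusted p below 0.05. Over all tested genes these shares were 3.25% and 1.77%. The 4 were Sparc, Col1a1, Col1a2 and Adipoq. Over the 17, 7 were positive and 1 negative in both pairs, against 14.2% and 13.2% of all tested genes. The median was 0.07 without ACP196 and 0.85 with it. Cxcl12, the niche chemokine, had 6.79, 13.7 and 10.5 CPM in the PI3K inhibitor group against 9.84, 4.00 and 5.49 CPM in the vehicle group, and 4.65, 14.9 and 8.13 CPM in the combination group against 5.68, 7.47 and 2.62 CPM in the BTK inhibitor group. Lepr, the leptin receptor that marks stromal progenitors, was at or below 1.03 CPM in every specimen. Summed CPM of the list ran from 204 to 282 in the PI3K inhibitor group, 207 to 310 in the vehicle group, 284 to 415 in the combination group and 213 to 276 in the BTK inhibitor group. The part of carried-over stromal cells in the collagen values was not tested.

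Interferon-stimulated genes were on the lower side with ACP319, mainly against vehicle. The list's mean log2 level relative to all 12 specimens was -0.17 ± 0.19 in the PI3K inhibitor group and 0.59 ± 0.34 in the vehicle group. It was -0.23 ± 0.10 in the combination group and -0.19 ± 0.42 in the BTK inhibitor group (SD, n = 3 each). The BTK inhibitor group, not given ACP319, thus stood about as low as the groups given it. Of 40 tested members, 13 were lower and 1 higher at an unadjusted p below 0.05, against 1.77% and 3.25% of all tested genes, and none passed the adjusted test by edgeR. Signs were negative in both pairs for 18 and positive in both for 2, against 13.2% and 14.2% of all tested genes. The median log2 fold change was -0.81 without ACP196 and -0.03 with it, and -0.76 and -0.11 with the length offset. The difference between the pairs was called for 9 of 40, against 27.6% of all tested genes. DESeq2 called 1 member lower, Ifit3b, against 0.0079% of all tested genes. Voom called 22 lower and 0 higher, against 0.879% and 1.68% of all tested genes. Leaving out BTK inhibitor specimen 6 gave 8 lower members in place of 13 and a median of 0.14 with ACP196, and leaving out BTK inhibitor specimen 5 gave 19 and -0.20. Over all tested genes, either direction, that level was met by 639 of 12742 with all specimens. It was met by 746 of 12950 without specimen 6 and 1190 of 12948 without specimen 5.

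Ifit3b and Ifit1, which encode proteins that bind viral RNA or their partners, were lower in both pairs. Ifit3b had 3.73, 5.01 and 4.62 CPM in the PI3K inhibitor group against 12.3, 7.72 and 12.1 CPM in the vehicle group, and 2.99, 2.82 and 2.18 CPM in the combination group against 3.98, 4.44 and 9.38 CPM in the BTK inhibitor group. It did not overlap within either pair, and the main effect was -1.22 ± 0.25 (log2 ± SE, edgeR adjusted p = 0.779, DESeq2 adjusted p = 0.007874). Ifit1 had 7.76, 11.8 and 13.4 CPM in the PI3K inhibitor group against 23.1, 14.5 and 27.7 CPM in the vehicle group, and 9.35, 6.25 and 5.06 CPM in the combination group against 9.03, 22.8 and 13.4 CPM in the BTK inhibitor group, where 1 value crossed. Its main effect was -1.05 ± 0.27. Ifit3b is a close copy of Ifit3, and the counting could split or drop reads shared by them, so its values are uncertain. Oas1g, a sensor of double-stranded RNA that is also one of several close copies, had a main effect of -1.36 ± 0.42, and Ifi44 one of -1.21 ± 0.42, both negative in both pairs. Isg20, an RNA exonuclease, went the other way with 0.97 ± 0.31. Stat2, a factor that carries the interferon signal, had -1.16 without ACP196 and 0.56 with it.

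The interferon-stimulated response element core (GAAA, any 2 bases, then GAAA) was found on either strand in promoters of 17 of 30 matched interferon-stimulated genes (56.7%), against 3.92% of all matched genes. Of the 43 genes counted in both pairs, 2 of 3 matched lower genes held it, Ifit1 and Ifit3b, and 1 of 28 matched higher genes (3.57%). Both promoters lie on the plus strand, Ifit3b at chr19:34607707-34608006 and Ifit1 at chr19:34640639-34640938, and each has 2 matches, in capitals, 5′ to 3′. They are shown because their genes lead the lower group and share the motif.
Ifit3b: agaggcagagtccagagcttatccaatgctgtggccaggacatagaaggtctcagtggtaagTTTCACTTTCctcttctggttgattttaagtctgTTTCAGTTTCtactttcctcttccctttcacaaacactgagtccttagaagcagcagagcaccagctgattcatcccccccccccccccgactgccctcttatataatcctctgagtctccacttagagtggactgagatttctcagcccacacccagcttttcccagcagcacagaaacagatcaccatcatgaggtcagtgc
Ifit1: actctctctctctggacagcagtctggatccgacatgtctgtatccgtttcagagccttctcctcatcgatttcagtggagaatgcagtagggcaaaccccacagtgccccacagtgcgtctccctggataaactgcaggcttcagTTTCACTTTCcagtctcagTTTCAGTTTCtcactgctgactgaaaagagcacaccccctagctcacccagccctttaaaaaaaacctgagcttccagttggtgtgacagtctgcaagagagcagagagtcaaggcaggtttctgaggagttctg

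**Figure D4:**
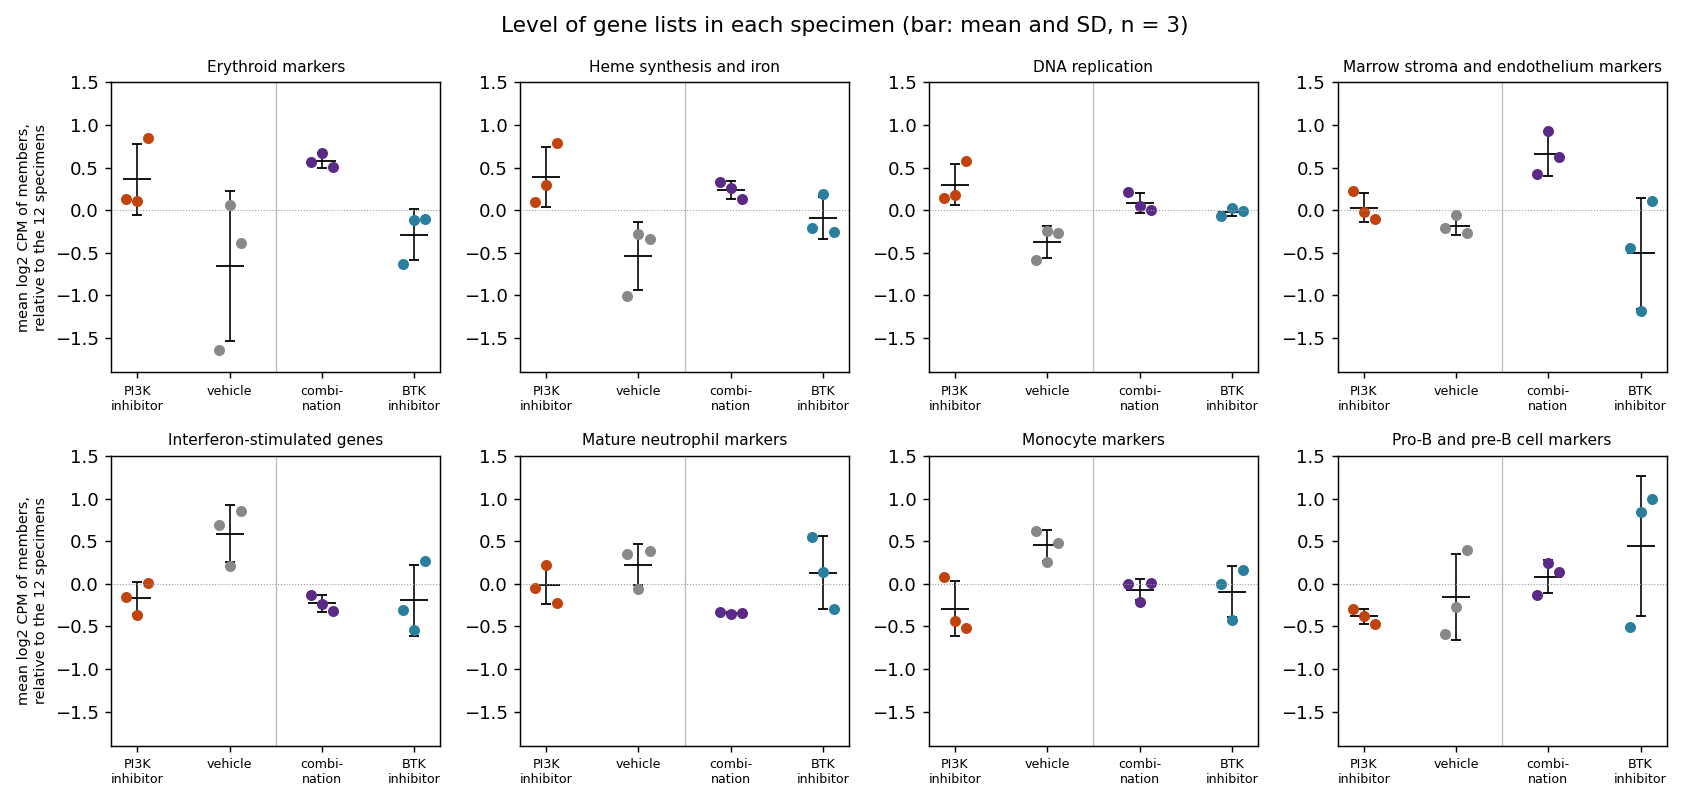
Mean log2 CPM of the members of 8 gene lists in each specimen relative to the mean of all 12 (y axis), by group (x axis), with bars at the mean and SD (n = 3). Erythroid markers were above in the PI3K inhibitor and combination groups, with vehicle specimen 1 at -1.64, and interferon-stimulated genes were highest in vehicle specimens 1 and 3, at 0.69 and 0.86.

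Lists of myeloid cells differed among themselves. Monocyte and neutrophil markers were on the lower side with ACP319, granulocyte-monocyte precursor markers had opposite signs in the pairs for 18 of 18, and macrophage markers were positive in both pairs for 5 and negative for 1 of 18, with a median main effect of -0.05. Over all tested genes 1.77% were lower and 3.25% higher at an unadjusted p below 0.05, and 13.2% were negative and 14.2% positive in both pairs. Of 25 tested monocyte markers, 3 were lower and 0 higher, and 9 were negative and 0 positive in both pairs. Medians were -0.60 without ACP196 and -0.10 with it, the second of which became 0.07 without BTK inhibitor specimen 6. The list's mean relative log2 level was -0.29 in the PI3K inhibitor group and 0.45 in the vehicle group. It was -0.07 in the combination group and -0.09 in the BTK inhibitor group, so the list was lower mainly against vehicle. Mature neutrophil markers had 3 of 23 lower and 0 higher, with 7 negative and 0 positive in both pairs and medians of -0.37 in each. Those lower members stood beside a summed CPM of the list that ran from 68820 to 140100 in the PI3K inhibitor group and from 47760 to 76600 in the vehicle group. The 3 became 1 without vehicle specimen 1, 8 without BTK inhibitor specimen 5 and 12 with the length offset. Over all tested genes, either direction, the 639 of 12742 at that level became 383 of 12929, 1190 of 12948 and 991 of 12742 in those fits. Immature neutrophil markers had 2 of 21 lower and 0 higher, with 12 negative and 0 positive in both pairs and medians of -0.20 without ACP196 and -0.38 with it. Cybb, the catalytic subunit of the phagocyte oxidase, had 1136, 1141 and 683 CPM in the PI3K inhibitor group against 1946, 1996 and 1681 CPM in the vehicle group, and 1280, 1184 and 1205 CPM in the combination group against 1330, 2484 and 1651 CPM in the BTK inhibitor group. It did not overlap within either pair, and the main effect was -0.75 ± 0.23 (log2 ± SE). Cx3cr1, the fractalkine receptor of monocytes, had 30.7, 25.8 and 19.6 CPM in the PI3K inhibitor group against 61.7, 46.7 and 55.4 CPM in the vehicle group, and 35.6, 32.0 and 45.95 CPM in the combination group against 31.8, 79.2 and 49.8 CPM in the BTK inhibitor group, which overlapped. Itgam, the integrin CD11b, had a main effect of -0.75 ± 0.27, Cxcr2, the neutrophil chemokine receptor, of -0.50 ± 0.22, Ncf1, a subunit of the phagocyte oxidase, of -0.51 ± 0.24, and Klf4, a transcription factor of monocytes, of -0.65 ± 0.27.

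Pro-B and pre-B cell markers had 1 of 22 lower and 0 higher at an unadjusted p below 0.05, against 1.77% and 3.25% of all tested genes. They had 12 negative and 1 positive in both pairs, against 13.2% and 14.2% of all tested genes. Medians were -0.45 without ACP196 and -0.44 with it. Erg, a transcription factor of progenitors on this list and on that of stem cells, had a main effect of -0.77 ± 0.25 and Cd93 one of -0.63 ± 0.30. BTK inhibitor specimens 5 and 6 were high for this list, at 0.84 and 1.00 relative log2, against -0.50 in specimen 4. Leaving out specimen 6 brought the median with ACP196 to 0.04. Stem and progenitor markers had 3 of 20 lower and 0 higher, with medians of -0.30 without ACP196 and -0.19 with it.

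Genes of the targeted pathway had opposite signs in the pairs for 29 of 36 (80.6%), against 72.6% of all tested genes. Pik3cd, which encodes the target of ACP319, had 128, 115 and 93.4 CPM in the PI3K inhibitor group against 215, 252 and 199 CPM in the vehicle group, and 146, 167 and 178 CPM in the combination group against 121, 162 and 163 CPM in the BTK inhibitor group. Its log2 fold change was -0.99 without ACP196 and 0.14 with it, and this difference was called (interaction 1.13, edgeR adjusted p = 0.02655). The call was lost with the length offset (0.18, adjusted p = 0.6793), and without PI3K inhibitor specimen 8 or 9, vehicle specimen 1 or 2, combination specimen 11 or 12, or BTK inhibitor specimen 4, where edgeR's adjusted p lay between 0.05049 and 0.07647. Inhibitors act on the protein, so this is no check of the treatment labels. Pik3cb and Pik3cg, the catalytic subunits p110 beta and gamma, had -1.0 and -1.47 without ACP196 and 0.42 and 0.73 with it, and Pik3ca, p110 alpha, had -0.72 and 0.03. Main effects were -0.42 ± 0.23 for Pik3cd, -0.29 ± 0.29 for Pik3cb, -0.37 ± 0.52 for Pik3cg and -0.35 ± 0.23 for Pik3ca. Ptpn11, which carries the allele, had a main effect of 0.02 ± 0.37 and Btk one of -0.02 ± 0.15. Of 36 tested PI3K pathway genes, 25 were lower without ACP196 and higher with it, 20 were called for the interaction against 27.6% of all tested genes, and medians were -0.94 without ACP196 and 0.51 with it. These genes had a median length of 5050 bases. With the length offset the medians were -0.32 and 0.23.

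FOXO factors and their targets, which PI3K signalling restrains, held no member past an unadjusted p of 0.05 by edgeR. Of 33 tested, 0 were higher and 0 lower at that level. Voom called 1 lower, against 0.879% of all tested genes, and DESeq2 called 0. Signs were positive in both pairs for 2 (6.06%) and negative in both for 9 (27.3%), against 14.2% and 13.2% of all tested genes, with medians of -0.20 without ACP196 and -0.12 with it. Trib1, a pseudokinase, had -0.61 ± 0.29 and Sesn1, a stress-induced regulator of mTOR, 0.31 ± 0.17 (log2 ± SE). The FOXO core GTAAACA was found in promoters of 5 of 26 matched members (19.2%), against 3.05% of all matched genes and 0 of the 28 matched higher genes counted in both pairs.

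Of the remaining lists, inflammatory cytokines and receptors had 3 of 31 lower and 0 higher at an unadjusted p below 0.05, against 1.77% and 3.25% of all tested genes. They were negative in both pairs for 35.5% and positive in both for 9.68%, with a median main effect of -0.21. Glycolysis genes were negative in both pairs for 32% and positive in both for 12%, with 1 of 25 higher and 0 lower. Cytoplasmic ribosomal proteins were higher without ACP196 and lower with it for 41 of 42, oxidative phosphorylation genes for 35 of 42 and replication-dependent histones for 22 of 26, all lists of short genes with median lengths of 737, 935.5 and 488.5 bases. Opposite signs were found for 26 of 33 B-cell receptor and BTK pathway genes (78.8%) and 22 of 27 RAS-ERK output genes (81.5%), against 72.6% of all tested genes. Antioxidant enzymes had 6 of 27 higher and 0 lower at an unadjusted p below 0.05, against 3.25% and 1.77% of all tested genes, with medians of 1.03 without ACP196 and -0.30 with it. Among dendritic cell markers 1 of 18, the transcription factor Zbtb46, met the rule in both pairs, with a main effect of 0.93 ± 0.26. Among antioxidant enzymes Nqo1, a quinone reductase, had a main effect of 1.05 ± 0.29 with no overlap in either pair, and Gsta4, a glutathione transferase, one of 1.27 ± 0.41. The plot of list medians shows where both pairs fell on the same side of 0.

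**Figure D5:**
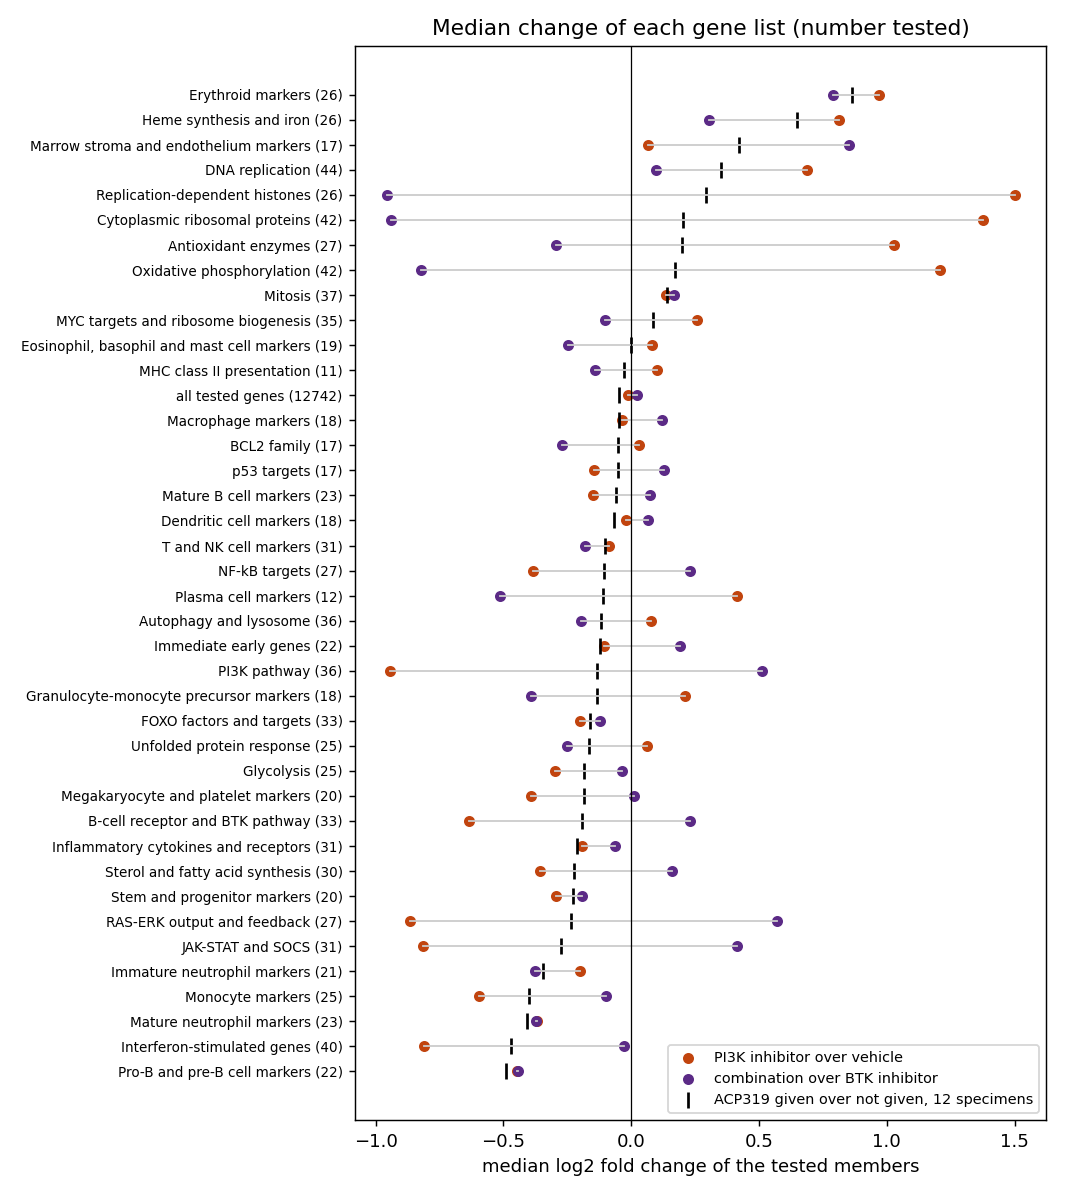
Median log2 fold change of the tested members (x axis) of 39 gene lists and of all tested genes (y axis, number tested in parentheses), for the PI3K inhibitor over vehicle, the combination over the BTK inhibitor, and ACP319 given over not given across 12 specimens. Erythroid markers had the highest main effect median of the lists drawn, 0.86, and pro-B and pre-B cell markers the lowest, -0.49, with both pairs on the same side of 0 in each.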

How the data were processed

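Bone marrow mononuclear cell RNA was amplified with a SMART-Seq low-input kit and made into Nextera XT libraries, per the labels' protocols. Strand is not kept by such libraries, and reads of overlapping antisense genes cannot be told apart. STAR and featureCounts on mm10 are named in the submitters' processing notes, and no version or setting of either was found in the labels. The table deposited by the authors holds raw counts for each gene beside its length, per the file headers, with 1 column for each of 12 specimens while 24 samples are listed, 2 per specimen. The table has 0 unused per-sample columns.

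Groups came from the treatment label. Counts differed between specimens of a group far beyond sampling noise (20.5 to 633 chi-square units for each degree of freedom), so all were kept. Genes passed filterByExpr (minimum count 10, total 15). In R 4.3.3, edgeR 4.0.16 with TMM scaling and robust quasi-likelihood tests fitted ACP319 with ACP196 as a covariate over 12 specimens. A model of 4 group means gave the effect in each pair of groups and the interaction. P-values were Benjamini-Hochberg adjusted over all tested genes at 0.05. CPM use TMM-scaled library sizes, and log2 CPM a prior count of 2. Single specimen measures were tested by all 400 arrangements within the pairs.

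The comparison, the 40 gene lists and the tests were chosen with earlier results of these data known, and lists are described by counts and medians without a test. Named genes were up to 12 per direction with p below 0.05 in both pairs, a mean of 2 or more log2 CPM and a name other than a predicted gene's, taken by smallest p since none was called, the 2 members of each list with the smallest p, 5 interaction genes per direction, and Btk, Ptpn11 and the 4 PI3K catalytic subunits. Other genes were named after their values were seen. Of the list members, 8 have no row in the table. Alternatives were DESeq2 1.42.0, limma 3.58.1 voom with quality weights, other scalings and filters, a gene length offset (natural spline, 5 degrees of freedom), Y-linked presence, no ACP196 covariate and each specimen left out. A further one was the average of both pairs in the model of group means. The models were run on simulated counts in which some genes had an effect of ACP319 alone. That simulation held no interaction and no gene length slope, so it cannot show how the models handle them. Results for 3 withheld genes are not reported here.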

Additional observations from a re-analysis of the deposited data

Results flagged for a closer look

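The effect of ACP319 differed between mice without and with ACP196 for 17 genes named in the text, by the test of the interaction itself (edgeR, adjusted p below 0.05). The differences below are log2 fold changes, the combination over the BTK inhibitor minus the PI3K inhibitor over vehicle. Of the 5 positive ones with the smallest p, the values were 3.05 for Arid5b, 3.00 for Lrp1, 2.85 for Hip1, 2.55 for Dmxl2 and 2.54 for L1cam, each negative without ACP196 and positive with it. Of the 5 negative ones the values were -3.04 for Phpt1, -2.70 for Itgb3bp, -2.50 for Ly6d, -2.31 for Clybl and -2.10 for Hrsp12, each positive without ACP196 and negative with it. Among PI3K subunits the differences were 2.20 for Pik3cg, 1.42 for Pik3cb and 1.13 for Pik3cd. Members of other lists were Gata1 at -1.97, Rpl35 at -1.60, Wdr12 at -1.25 and Ndufv1 at -1.18. Lengths ran from 4494 to 14891 bases for the first 5 genes and from 583 to 2738 bases for the second 5, beside the length slopes that differed between groups. With the gene length offset the difference was not called for any of the 10 genes taken by the naming rule for the interaction. Nor was it called with the offset for Gata1, Pik3cb, Pik3cg or Pik3cd (edgeR adjusted p = 0.1346, 0.1873, 0.263 and 0.6793). Without combination specimen 11 or 12, the interaction was called for 0 of all tested genes, so for none of the 17. Groups of 3 specimens were too small for the search for outlying specimens.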

How the results depend on the processing

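No paired analysis was possible because the groups share no specimen number. Main effect calls stayed at 0 in each direction except for 11 higher and 1 lower with DESeq2, and 214 higher and 112 lower with voom. Higher genes in both pairs, 38 in the model reported, numbered 189 with voom, 62 with the length offset and 108 with that offset and without BTK inhibitor specimen 5. They ranged from 15 (without combination specimen 11) to 75 (without vehicle specimen 2) when each specimen was left out. Lower genes in both pairs, 5 in that model, numbered 3 with the stricter filter, 10 with DESeq2, 63 with voom, 13 with the offset and 25 with the offset and without specimen 5, and ranged from 2 to 24 (without BTK inhibitor specimen 4). Interaction calls, 3522, became 6729 with voom, 1 with the offset and 418 with the offset and without specimen 5, and ranged from 0 (without combination specimen 11 or 12) to 5692 (without BTK inhibitor specimen 6). Calls without ACP196, 1359 in all, became 0 with the length offset, 0 with Y-linked presence as a covariate and 0 without any 1 of PI3K inhibitor specimens 8 and 9, of the 3 vehicle or of the 3 combination specimens. The joint test of both pairs gave 0 throughout. Where each pair was fitted alone, the interaction was not computed. The causes were not tested.

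Of the 43 genes counted in both pairs, all kept their sign in both pairs in the alternatives that fitted them, except Ufsp1, which kept it in 21 of 23. The 43 were chosen by sign and p, and the alternatives reuse the same counts, so kept signs are a description only. The number of the 43 that again met the rule ranged from 17 (without vehicle specimen 1 or combination specimen 11) to 43. Main effect medians of the erythroid, heme, replication, stromal, interferon, monocyte, neutrophil and pro-B lists kept their sign in 24 alternatives, from 0.67 to 1.07 for erythroid markers and from -0.69 to -0.37 for interferon-stimulated genes. Of the genes named, main effects turned sign for Ptpn11 (-0.1882 with voom, -0.0078 without the covariate, -0.0093 with the offset and without specimen 5, -0.2334 to 0.1956 over specimens left out), Btk (-0.0621 to 0.0275 over specimens left out), Bcl11b (0.0711 with voom, 0.3009 with the offset and without specimen 5, -1.2218 to 0.0765 over specimens left out), Pik3ca (0.0544 with the offset and without specimen 5), H2-DMb1 (0.1102 with voom) and Ncr1 (-0.0349 with voom), none of them called. The 3 specimens per group limit precision.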
